A study of Homo sapiens with 12 samples.

Results

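Lysosomes degrade material that reaches them by endocytosis and autophagy, and 47 genes of this organelle were followed across a bulk RNA-seq series of WI-38, a diploid fibroblast line from human lung. The genes were listed by name and role with no threshold on a measured value, although earlier results of these data were known when the list was made: 12 glycosidases, 5 sulfatases, 5 genes of lipid breakdown (4 enzymes and the activator precursor PSAP), 13 proteases, 9 membrane or cholesterol-handling proteins, and the 3 transcription factors TFEB, TFE3 and MITF. They are 47 of the 57773 genes listed in the deposited count tables, and all 47 passed the filter on low counts that left 21518 genes for testing. The series held 12 libraries in 4 groups of 3. Proliferating cells were transfected with a non-targeting siRNA pool (siCtrl) and kept for 8 days in medium with the vehicle DMSO. The other groups received etoposide (50 µM), which traps topoisomerase on broken DNA and is used to make cells senescent, for 8 days, after transfection with siCtrl, with a pool against NTRK2 mRNA (siNTRK2; NTRK2 encodes the neurotrophin receptor TrkB) or with a pool against BDNF mRNA (siBDNF; BDNF encodes the ligand of TrkB). Each siRNA was used at 25 nM, all groups came from the same cell line, and no group of proliferating cells with siNTRK2 or siBDNF was among the samples.

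Soluble lysosomal hydrolases work best at the acid pH that a vacuolar proton pump maintains, and most of them reach the organelle through mannose 6-phosphate tags. The limiting membrane carries heavily glycosylated proteins such as LAMP1 and LAMP2, together with channels and exporters. TFEB, TFE3 and MITF are basic helix-loop-helix factors that bind a palindrome with the core CACGTG upstream of many lysosomal genes, and they are controlled largely by phosphorylation and by their place in the cell. Senescent cells are known for an enlarged lysosomal compartment, and the acid beta-galactosidase encoded by GLB1 is the enzyme behind their standard histochemical stain.

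The promoters of these genes were read first. The genes were not chosen by promoter sequence, but the motif of the TFEB family is already known upstream of many lysosomal genes. Its share among them is therefore a description and not an independent result. RefSeq promoter windows (GRCh38.p14, 250 bases before to 50 after each gene's start) were matched by symbol for 34 of the 47 genes. TCACGTG, read on either strand, occurred in the windows of 10 of these 34 genes (29.4%), against 4.49% of the 27305 genes with a window. The core CACGTG alone was found in 11 of 34 (32.4%) against 8.77% of all genes, and the full palindrome TCACGTGA in 6 of 34 (17.6%) against 1.18%. The shorter motifs are contained in the longer ones, and the genes compared with were not matched to the 34 by type of promoter. A match of letters in a window is not evidence that a factor binds there. The sequences below show the palindrome in capitals where the whole match lies before the gene's start, for a membrane protein, a sulfatase, a glycosidase, a channel and a protease.

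LAMP1: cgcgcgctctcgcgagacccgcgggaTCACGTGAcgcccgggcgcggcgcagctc
GALNS: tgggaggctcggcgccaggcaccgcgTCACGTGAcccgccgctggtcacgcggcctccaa
GAA: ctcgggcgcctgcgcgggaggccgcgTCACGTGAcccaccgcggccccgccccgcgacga
MCOLN1: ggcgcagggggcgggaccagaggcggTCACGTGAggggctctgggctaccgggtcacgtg
CTSA: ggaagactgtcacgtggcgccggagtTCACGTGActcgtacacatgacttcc

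On GRCh38.p14 these stretches were chr13:113297184-113297238 (plus strand) for LAMP1, chr16:88857089-88857148 (minus) for GALNS, chr17:80101478-80101537 (plus) for GAA, chr19:7522556-7522615 (plus) for MCOLN1 and chr20:45891283-45891334 (plus) for CTSA. The MCOLN1 window held the palindrome a second time from position -15 (counted from the gene's start), and that of GAA from position -32. In the LAMP1 window a second palindrome began at position -2 and ran across the start. The 120 bases before the starts of FUCA1, the gene with the widest change in senescence, and of GLB1 are shown for comparison, since neither gene's window held the core motif.

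FUCA1: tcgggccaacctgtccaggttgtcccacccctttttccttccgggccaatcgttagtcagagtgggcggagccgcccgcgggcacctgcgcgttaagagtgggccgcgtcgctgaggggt
GLB1: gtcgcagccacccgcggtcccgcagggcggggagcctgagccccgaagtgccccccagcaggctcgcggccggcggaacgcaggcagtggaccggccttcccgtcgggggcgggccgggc

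These lie on the minus strand at chr1:23868291-23868410 (FUCA1) and chr3:33096823-33096942 (GLB1) of GRCh38.p14. The absence of a match says only that these letters were not in these windows.

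The libraries held 31567912 to 72328151 counts, and 3 counts, taken as the smallest detectable signal, corresponded to 0.0427 to 0.0915 normalized CPM (a library-size-scaled count, with TMM factors), the unit of all levels below. The reads carried no molecular identifiers, and this floor therefore reflects counting error alone. NTRK2 had 0 counts in each siNTRK2 library and 7, 15 and 10 in the siCtrl senescent libraries, and BDNF stood at 48.1, 48.8 and 44.3 CPM with siBDNF against 161, 157 and 169 with siCtrl. The study's methods describe its cell culture work as independent experiments that each included every group, but the labels do not tie the libraries to experiments. The p-values measure the spread between these libraries. A list of 10 fibroblast genes, among them the collagens COL1A1 and COL3A1, summed to 32300 to 34200 CPM in proliferating, 23300 to 25100 in senescent, 27300 to 30200 in siNTRK2 and 24000 to 24600 in siBDNF libraries. This sum is carried by COL1A1 and COL1A2. Of the 10 genes, 8 were lower and 1 higher in senescence, 6 higher and 1 lower with siNTRK2, and 6 lower and 1 higher with siBDNF, where DCN went from 587 to 376 CPM and THY1 from 644 to 443 CPM. Between the silenced groups, 9 were higher and 0 lower with siNTRK2. Of all tested genes, 29.8% were higher and 28.3% lower in senescence, and 11.1% and 10.0% with siNTRK2. The shares were 10.3% and 10.2% with siBDNF, and 8.84% and 7.86% between the silenced groups. A short endothelial list, made up almost wholly of TEK, summed to 75.2 to 78.3 CPM in proliferating, 34.6 to 36.5 in senescent, 34.9 to 41.2 in siNTRK2 and 24.7 to 25.8 in siBDNF libraries. VWF went the other way from TEK in senescence, from 0.379 to 1.12 CPM to 1.69 to 2.11 CPM. An epithelial list, mostly KRT19, summed to 17.1 to 19.4, 46.5 to 57.5, 38.4 to 43.8 and 48.6 to 50.5 CPM in the same order. KDR of the former list and CDH1 of the latter were at most 0.128 and 0.0811 CPM in proliferating libraries. They passed the filter through the senescent groups, so their direction in senescence was largely set by it and is not counted here. Mitochondrial genes took 1.6 to 1.99% of counts in proliferating, 3.33 to 3.65% in senescent, 2.5 to 2.85% in siNTRK2 and 1.78 to 2.38% in siBDNF libraries. A list of 10 macrophage and leukocyte genes, cells that are rich in lysosomes, summed to 0.883 to 1.43 CPM in proliferating, 3.37 to 4.03 in senescent, 2.25 to 2.65 in siNTRK2 and 4.15 to 5.06 in siBDNF libraries. PTPRC, CD163, MARCO and LYZ were at 0 in every proliferating library and passed the filter only through the senescent groups, so their direction in senescence was set by the filter and is not counted here. With siNTRK2 or siBDNF against siCtrl, 0 of the 7 tested genes of this list were called (1 and 0 at an unadjusted p under 0.05, 0 by DESeq2). Between the silenced groups, 0 were higher and 2 lower with siNTRK2 (28.6% of the 7, beside 7.86% of all tested genes). There 3 had an unadjusted p under 0.05 and 1 was called by DESeq2. CD163 stood at 0.0186 to 0.161 CPM with siNTRK2 and 0.275 to 0.509 CPM with siBDNF. It passed the filter largely through the siBDNF libraries, so its direction between the silenced groups was largely set by the filter. The part of these shifts in the results below was not tested. In bulk RNA, fewer cells of a type and less RNA per cell cannot be told apart.

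Within one group, transcripts of the 47 genes spanned a wide range of levels, compared here per kilobase of transcript. CD63, a tetraspanin of late endosomes, was highest in proliferating cells at 812 ± 43.4 CPM per kilobase (SD, n = 3), followed by CTSB (cathepsin B) at 263 ± 9.43 and PSAP at 234 ± 4.04. CTSC (cathepsin C) and CTSD (cathepsin D) came next at 184 ± 1.39 and 179 ± 10.4 CPM per kilobase and did not differ beyond their spread. In senescent cells the order at the top was CD63 (1290 ± 72.4 CPM per kilobase), PSAP (399 ± 26.1), CTSB (287 ± 11.8) and CTSD (267 ± 1.36), and the same 4 genes led in both silenced groups. TFEB, CTSS (cathepsin S) and CTSH (cathepsin H) took the bottom 3 places in the senescent groups, with TFEB at 1.3 ± 0.118 CPM per kilobase in siCtrl cells. FUCA1 was in the next to last place in proliferating cells, at 0.707 ± 0.0789 CPM per kilobase.

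**Figure D1:**
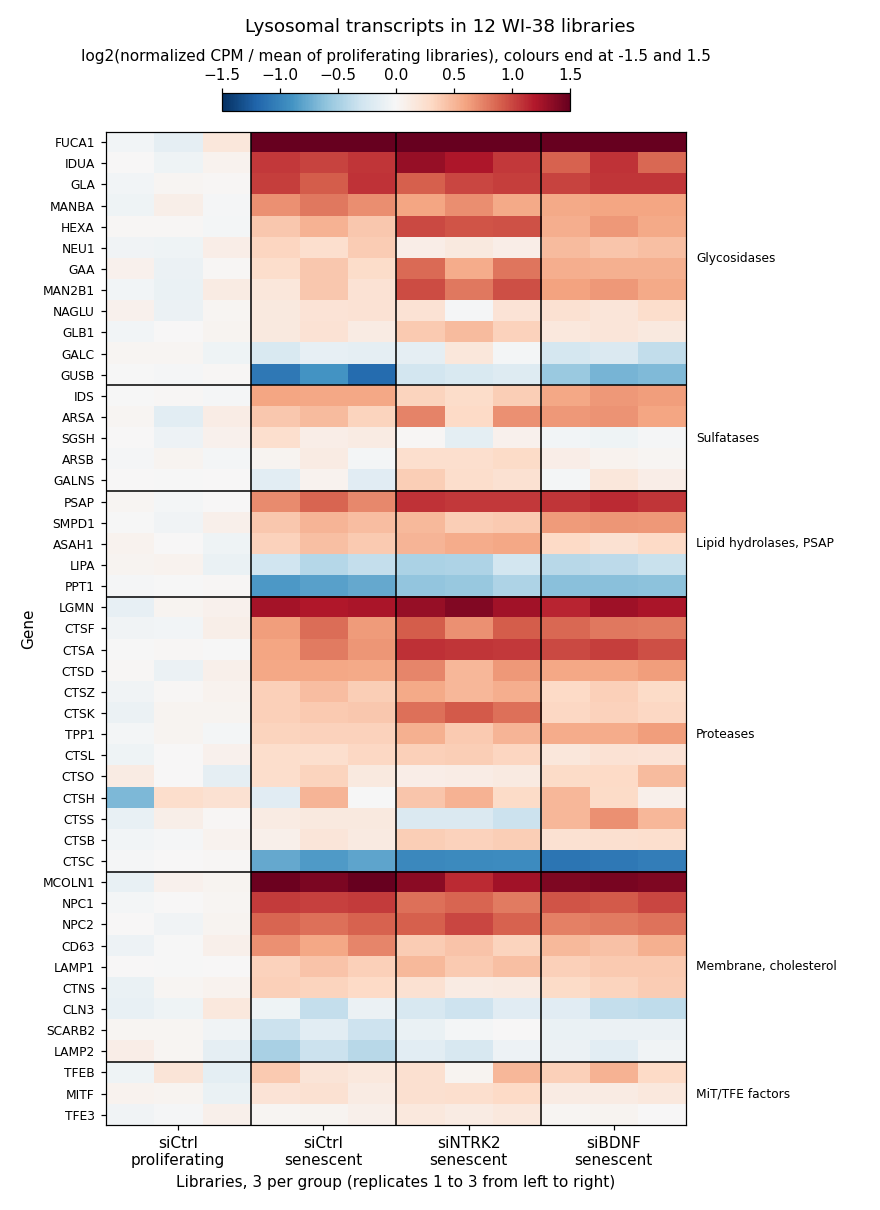
Heat map of the 47 lysosomal genes (rows, by role) in the 12 libraries (columns, 3 per group), coloured by the log2 ratio of each library's normalized CPM to the mean of the proliferating libraries, with colours ending at -1.5 and 1.5. FUCA1, IDUA, GLA, LGMN, MCOLN1 and NPC1 are red in all 9 senescent libraries, while GUSB, PPT1 and CTSC are blue in all of them.

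The first comparison asked how the lysosomal transcripts differ between senescent and proliferating cells, both with siCtrl. In senescent cells, 33 of the 47 genes were higher and 6 were lower (edgeR quasi-likelihood test, adjusted p under 0.05), and 8 did not pass the test. Over all 21518 tested genes, 29.8% were higher and 28.3% lower by the same rule (58.1% in all), and the median log2 change was 0.0247 over all genes and 0.322 over the 47. At the study's threshold, which adds a change of more than 2-fold, 6 genes were higher and 1 was lower, where 11.6% and 5.16% of all genes were (16.7% in all). The summed share of the 47 genes rose from 0.606 to 0.611% of all counts in proliferating libraries to 0.78 to 0.824% in senescent ones, with no overlap.

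Among the glycosidases, which trim sugars from glycoproteins, glycolipids and glycosaminoglycans, 10 of 12 were higher, GUSB was lower and GALC did not pass. FUCA1, encoding alpha-L-fucosidase (chr1:24171567-24194780, hg19), measured 1.4, 1.31 and 1.62 CPM in the proliferating libraries and 16.8, 16.5 and 15.9 CPM in the senescent ones. The groups were far apart, an 11.5-fold difference (log2 3.53 ± 0.095 SE, adjusted p = 3.6e-20), the widest among the 47 genes. IDUA (chr4:980785-998352, hg19), whose product alpha-L-iduronidase degrades heparan and dermatan sulfate, measured 7.23, 6.85 and 7.46 CPM against 15, 14.5 and 15.1 CPM. Every senescent library lay about 2-fold above every proliferating one (log2 1.05 ± 0.0855, adjusted p = 9.74e-11). GLA, the alpha-galactosidase that clears globotriaosylceramide, also rose 2.02-fold, from 24.3 to 49.1 CPM on average (log2 1.01 ± 0.0586, adjusted p = 1.35e-13). The opposite change was seen for GUSB, encoding beta-glucuronidase (chr7:65425671-65447202, hg19), which is often used as a reference gene. Its levels were 23.8, 23.7 and 24.1 CPM in proliferating and 11.4, 12.8 and 10.7 CPM in senescent libraries, and the mean senescent level was 0.489 times the proliferating one (log2 -1.03 ± 0.0724, adjusted p = 6.32e-12).

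GLB1 (chr3:33038101-33138694, hg19) changed much less than these. It measured 114, 117 and 120 CPM in proliferating and 129, 136 and 127 CPM in senescent libraries, which did not overlap. The difference was 1.11-fold (log2 0.16 ± 0.0458, adjusted p = 0.00487), and in a fit corrected for each transcript's length and GC share it was no longer called (log2 0.05, adjusted p = 0.239). Of the remaining glycosidases, MANBA (beta-mannosidase) had a log2 change of 0.73 and HEXA, the alpha subunit of beta-hexosaminidase, of 0.45.

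Among the sulfatases, 3 of 5 were higher, led by IDS, which acts on the same glycosaminoglycans as IDUA, at a log2 change of 0.59. In hg19 annotation, 75% of the exon bases of IDS also belong to the same-strand gene ENSG00000241489, whose counts changed by 0.69, and how the counting shared out such reads is not given in the sources used here. A pseudogene copy, IDSP1, was also called higher in senescence (log2 0.91). It stood at -0.40 with siNTRK2 and -0.09 with siBDNF against siCtrl, and was not called in either. In lipid breakdown, PSAP, the precursor of the saposins that present sphingolipids to their enzymes, rose (log2 0.77), as did SMPD1 (acid sphingomyelinase, 0.46) and ASAH1 (acid ceramidase, 0.40). PPT1, which removes palmitate from proteins, and LIPA, the acid lipase of cholesteryl esters, were lower, with log2 changes of -0.82 and -0.36.

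Of the 13 proteases, 10 were higher, CTSC was lower, and CTSH and CTSS did not pass the test. LGMN, the asparaginyl endopeptidase legumain that also processes cathepsins (chr14:93170152-93215024, hg19), measured 11.8, 13.2 and 13.4 CPM in proliferating and 30.5, 29.5 and 30.0 CPM in senescent libraries. The senescent level was 2.35-fold higher, with wide separation (log2 1.23 ± 0.0663, adjusted p = 3.39e-14). CTSF (0.71), CTSA (protective protein, 0.68) and CTSD (0.58) followed on the log2 scale. CTSD shares exon bases with a same-strand and an opposite-strand gene, ENSG00000250644 and PRADX, whose changes were 0.58 and 0.61. Overlapping genes did not always move together. CTSZ (cathepsin Z) rose from 115 to 151 CPM, while the opposite-strand gene NELFCD, which covers 31.7% of its exon bases, fell by 0.47. CTSC, a dipeptidyl peptidase that activates serine proteases of granules, fell by 0.80 on the log2 scale.

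Among the membrane and cholesterol genes, 6 of 9 were higher, LAMP2 and SCARB2 were lower, and CLN3 did not pass. MCOLN1, the calcium-releasing channel TRPML1 (chr19:7587510-7598895, hg19), measured 13.4, 15.2 and 14.9 CPM in proliferating and 40.1, 38.5 and 42.0 CPM in senescent libraries. This was a 2.78-fold difference without overlap (log2 1.47 ± 0.0674, adjusted p = 1.34e-15). NPC1, the membrane exporter of cholesterol (chr18:21086148-21166470, hg19), measured 51.0, 52.1 and 53.0 CPM against 108, 106 and 108 CPM. Its replicates were tight and its level 2.06-fold higher in senescence (log2 1.04 ± 0.0465, adjusted p = 8.06e-16), and its soluble partner NPC2 rose by 0.86 on the log2 scale. The 2 LAMP proteins moved in opposite directions: LAMP1 rose by 0.38 and LAMP2 fell by 0.41 on the log2 scale. SCARB2, which carries glucocerebrosidase to lysosomes, fell by 0.27.

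The transcription factors changed little at the mRNA level. TFEB measured 2.44, 2.92 and 2.30 CPM in proliferating and 3.35, 2.91 and 2.84 CPM in senescent libraries, overlapping groups with a log2 difference of 0.23 (95% interval -0.0774 to 0.547, adjusted p = 0.192). TFE3 measured 151, 154 and 164 CPM against 159, 160 and 165 CPM, also overlapping (log2 0.05, 95% interval -0.0428 to 0.135, adjusted p = 0.375). MITF measured 20.5, 20.2 and 18.4 CPM against 22.7, 23.1 and 21.5 CPM, groups that did not overlap and that passed the test at a log2 change of 0.18 ± 0.0634 (adjusted p = 0.0159).

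Read against the promoters, 7 of the 10 genes with TCACGTG in their window were higher in senescence and 0 were lower, with a median log2 change of 0.349, and 15 of the 24 genes with a window but without the motif were higher and 5 lower, with a median of 0.272. These are counts of few genes and describe this list only. By DESeq2 the totals were again 33 higher and 6 lower. Leaving out 1 library removed the call of 5 genes with small changes: CTSB without proliferating replicate 1 or 2 or senescent replicate 2 (adjusted p up to 0.0817), CTSO and MITF without proliferating replicate 3 or senescent replicate 2 (up to 0.0687 and 0.0822), NAGLU without proliferating replicate 2 (0.0885), and SGSH without proliferating replicate 1 or 2 or senescent replicate 1 (up to 0.153).

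**Figure D2:**
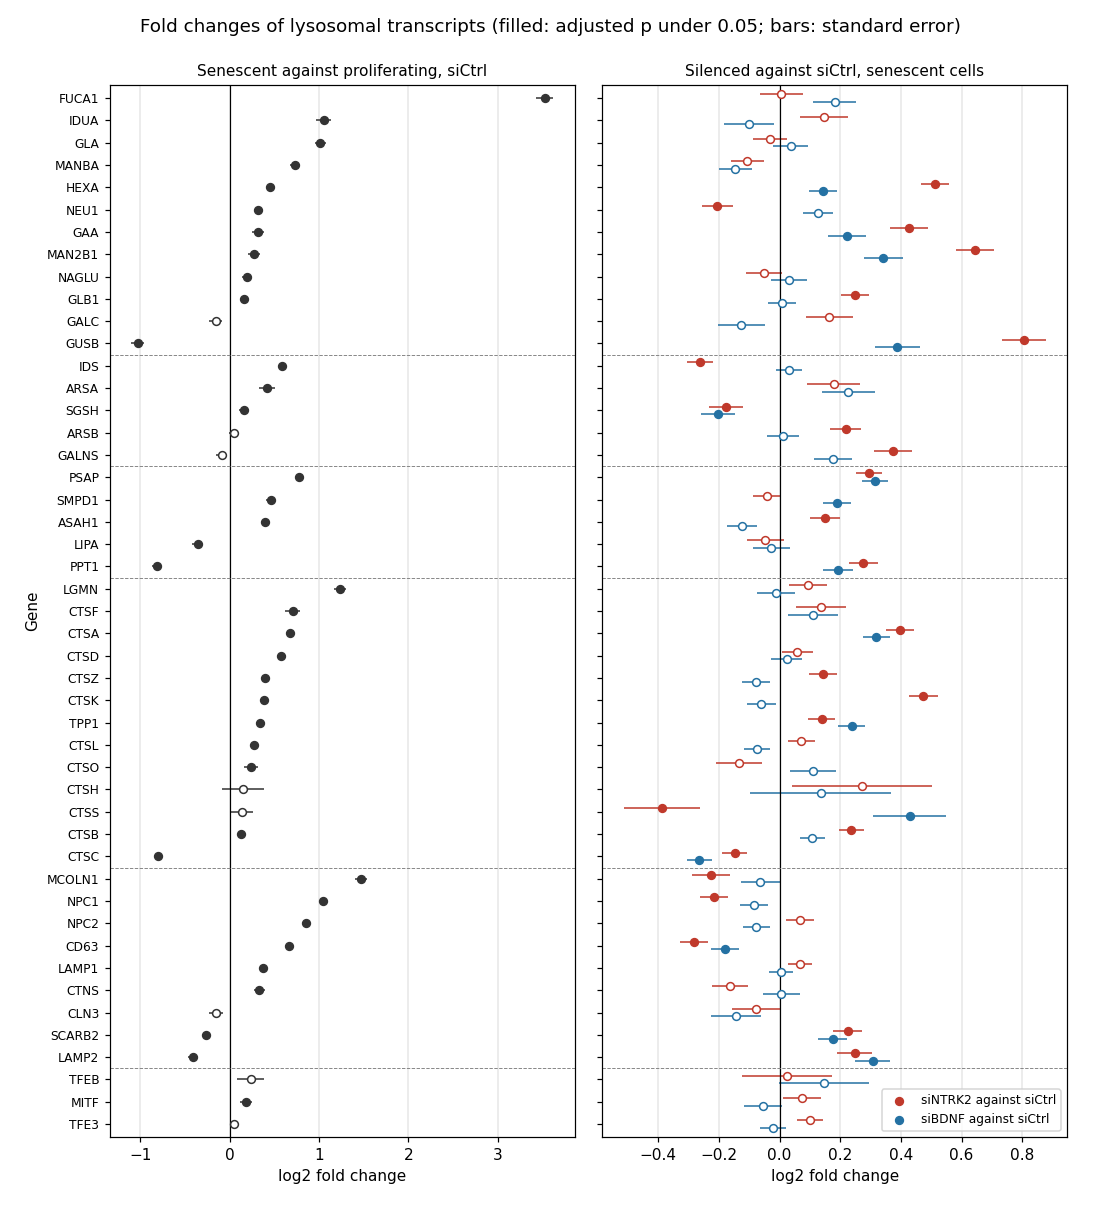
Log2 fold changes (x axis) of the 47 genes (y axis, by role) for senescent against proliferating cells with siCtrl (left) and for siNTRK2 (red) and siBDNF (blue) against siCtrl in senescent cells (right, on a narrower scale), with bars of 1 standard error and filled points where the adjusted p is under 0.05. FUCA1 stands apart at 3.53 on the left, and on the right GUSB, MAN2B1 and HEXA lie highest with siNTRK2.

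The next comparisons asked what silencing TrkB or its ligand does to the same transcripts in senescent cells. Both use the siCtrl senescent libraries that also served in the first comparison, so values are given side by side and no agreement between comparisons is counted. With siNTRK2, 17 of the 47 genes were higher and 8 lower than with siCtrl, where 11.1% and 10.0% of all tested genes were (21.1% in all). The median log2 change was 0.0926 over the 47 genes and -0.00239 over all. No gene changed by more than 2-fold in the edgeR fit: 0 did at an unadjusted p under 0.05 and 0 by DESeq2, and 0.390% and 0.567% of all genes passed that rule upwards and downwards (0.957% in all).

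The glycosidases held the widest increases with siNTRK2, with 5 of 12 higher and NEU1 lower. GUSB measured 19.8, 20.4 and 20.9 CPM, against 11.4, 12.8 and 10.7 CPM with siCtrl and 23.8, 23.7 and 24.1 CPM in proliferating cells. All siNTRK2 libraries thus lay between the other groups (log2 0.81 ± 0.0726 against siCtrl, adjusted p = 1.4e-08). GUSB has several near-identical pseudogenes, and of the 13 copies tested only GUSBP11, singled out after its values were seen, was called in either comparison (-0.52 in senescence and 0.60 with siNTRK2). Other copies were not called, such as GUSBP1 at 0.02 and 0.06 and GUSBP3 at -0.17 and 0.26, so the level of GUSB is uncertain to the extent that reads were shared. MAN2B1, the lysosomal alpha-mannosidase (chr19:12757325-12777556, hg19), measured 109, 95.8 and 108 CPM against 62.1, 73.5 and 64.2 CPM with siCtrl. The siNTRK2 libraries were all higher (log2 0.64 ± 0.0637, adjusted p = 6.11e-08). MAN2B1 shares 13.1% of its exon bases with the same-strand gene ENSG00000269242, which changed by 0.43, and 8.1% with the same-strand gene ENSG00000269590, which was not called (0.03). HEXA (chr15:72633265-72668761, hg19) measured 160, 155 and 156 CPM against 107, 116 and 107 CPM, and GAA, the acid alpha-glucosidase of glycogen (chr17:78075332-78093680, hg19), 87.6, 71.3 and 84.7 CPM against 58.3, 64.3 and 58.8 CPM. Neither overlapped its control group (HEXA log2 0.51 ± 0.0463, GAA log2 0.43 ± 0.0633). The antisense gene ENSG00000261460, which shares exon bases with HEXA, changed by 0.54, and whether the counting used the strand is not given in the sources used here. FUCA1, so far apart in senescence, measured 16.6, 16.3 and 16.4 CPM with siNTRK2, inside the range of siCtrl (log2 0.01, 95% interval -0.141 to 0.153).

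GLB1 rose further, with 154, 163 and 149 CPM in the siNTRK2 libraries against 129, 136 and 127 CPM with siCtrl, a 1.19-fold difference without overlap (log2 0.25 ± 0.0455, adjusted p = 2.71e-04). Among the sulfatases, GALNS (0.37) and ARSB (0.22) were higher and IDS (-0.26) and SGSH (-0.18) lower on the log2 scale. In lipid breakdown, PSAP (0.29), PPT1 (0.28) and ASAH1 (0.15) were higher. Among the proteases, 5 of 13 were higher and 2 lower. CTSK, the collagen-cleaving cathepsin K (chr1:150767356-150782053, hg19), measured 150, 161 and 150 CPM with siNTRK2 against 109, 111 and 112 CPM with siCtrl. The separation was wide for so small a spread (log2 0.47 ± 0.0471, adjusted p = 6.5e-08). CTSS, next to it on chromosome 1 (chr1:150702555-150738433, hg19), went the other way, from 3.56, 3.6 and 3.6 CPM to 2.81, 2.80 and 2.61 CPM (log2 change -0.39 ± 0.126, adjusted p = 0.0291). Its counts were low, and the call was lost in 6 alternatives (also without a filter on low counts and with only these 2 groups in the fit), with an adjusted p of up to 0.102 without siCtrl senescent replicate 1, 2 or 3 or siNTRK2 replicate 3. Of the membrane genes, SCARB2 (0.22) and LAMP2 (0.25) were higher, while CD63 (-0.28), MCOLN1 (-0.23) and NPC1 (-0.22) were lower. MCOLN1 measured 37, 31.5 and 34.6 CPM and NPC1 92.4, 95.3 and 88.9 CPM, both still above every proliferating library. In all, 8 of the 25 calls were lost without some library. Besides CTSS, those of MCOLN1 (without siCtrl senescent replicate 3 or siNTRK2 replicate 2), NEU1 (without siCtrl senescent replicate 3), ASAH1 (without siCtrl senescent replicate 1 or 3 or siNTRK2 replicate 3) and SGSH (without siCtrl senescent replicate 1 or 3 or siNTRK2 replicate 2) had adjusted p of 0.0513 to 0.186 there, and CTSC, CTSZ and TPP1 were the others.

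No transcription factor was called with siNTRK2 by edgeR or DESeq2, and 1 of the 3, TFE3, had an unadjusted p under 0.05. TFEB measured 3.01, 2.62 and 3.61 CPM, TFE3 174, 170 and 174 CPM, and MITF 23.2, 23.5 and 24.2 CPM. TFEB overlapped its control group, and TFE3 and MITF did not. The 95% intervals of the log2 differences were -0.282 to 0.33 for TFEB, 0.011 to 0.189 for TFE3 and -0.0541 to 0.204 for MITF. The count of 8 lower genes rested partly on single libraries, being 3 without siCtrl senescent replicate 3 and 5 without replicate 1. In the same cells the cyclin-dependent kinase inhibitor CDKN1A was lower (log2 -0.50) and the proliferation marker MKI67 was higher (1.72), and the part of these shifts in the lysosomal values was not tested.

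**Figure D3:**
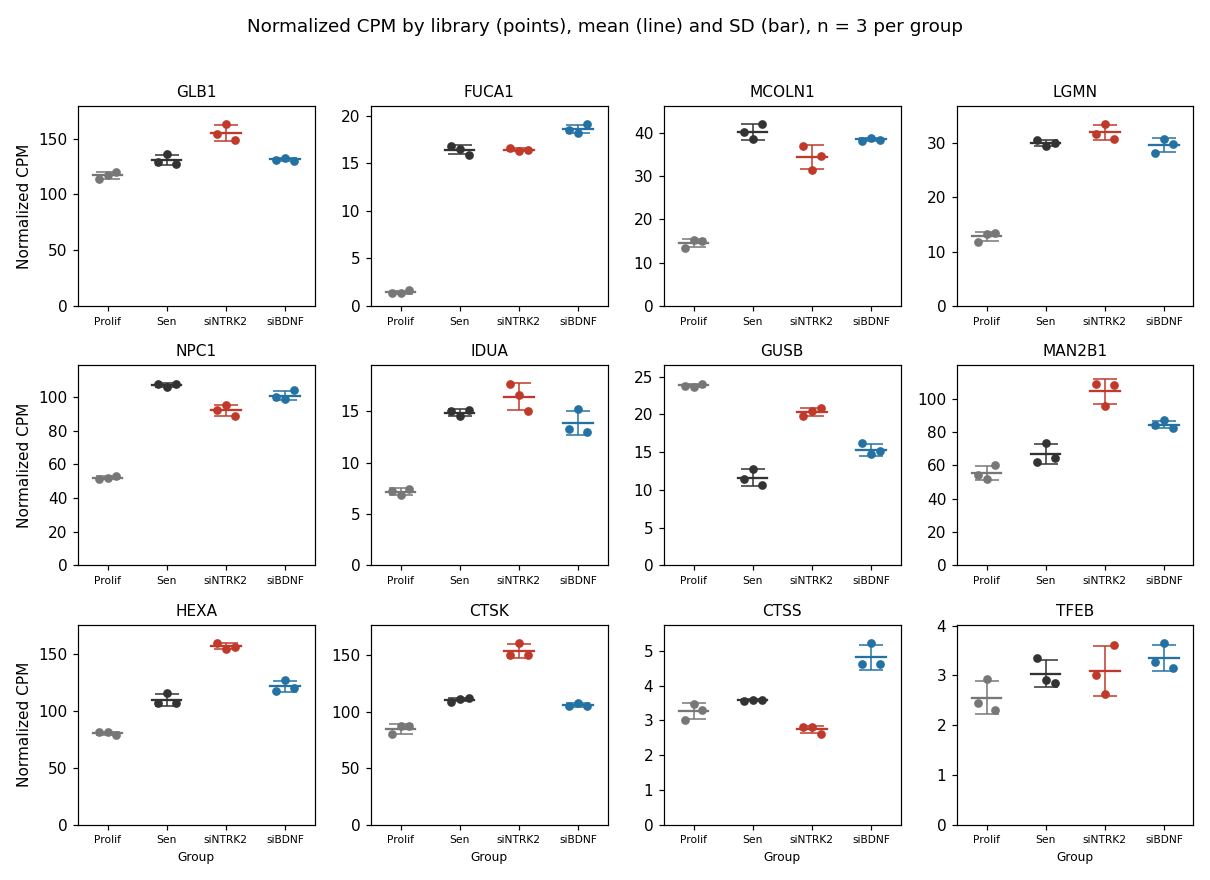
Normalized CPM (y axis, from 0) of 12 genes in each library (points) of the 4 groups (x axis), with the mean (line) and SD (bar, n = 3). GUSB drops in senescent cells and lies between both siCtrl groups after silencing, FUCA1 stays between 15.9 and 19.1 CPM in all senescent libraries, and CTSS is lowest with siNTRK2 and highest with siBDNF.

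With siBDNF, 12 of the 47 genes were higher and 3 lower, against 10.3% and 10.2% of all tested genes (20.5% in all). The median log2 change was 0.0305 over the 47 genes and 0.00394 over all. Again 0 genes passed 2-fold, 0 at an unadjusted p under 0.05 and 0 by DESeq2, where 0.372% and 0.237% of all genes did so upwards and downwards (0.609% in all). By role, 4 glycosidases, 3 genes of lipid breakdown, 3 proteases and 2 membrane genes were higher, and SGSH, CTSC and CD63 were lower.

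CTSS measured 4.61, 5.23 and 4.61 CPM with siBDNF against 3.56, 3.6 and 3.6 CPM with siCtrl. All 3 libraries were higher (log2 0.43 ± 0.121, adjusted p = 0.0121), and without siBDNF replicate 2 the call was lost (adjusted p = 0.0896). GUSB measured 16.2, 14.7 and 15.1 CPM and MAN2B1 84.2, 86.9 and 82.2 CPM. Both groups lay wholly above siCtrl (GUSB log2 0.39 ± 0.0739, adjusted p = 4.52e-04, and MAN2B1 log2 0.34 ± 0.0639, adjusted p = 3.69e-04). CTSA (chr20:44518783-44527588, hg19), which protects beta-galactosidase and the sialidase NEU1 in a complex, measured 357, 366 and 350 CPM with siBDNF, 383, 376 and 373 CPM with siNTRK2 and 270, 306 and 284 CPM with siCtrl. PSAP (chr10:73576055-73611008, hg19) measured 1350, 1400 and 1350 CPM with siBDNF, 1360, 1340 and 1340 CPM with siNTRK2 and 1050, 1180 and 1060 CPM with siCtrl. In both genes each silenced group lay above siCtrl without overlap, by log2 0.32 ± 0.0451 with siBDNF for CTSA and 0.31 ± 0.0436 for PSAP. The opposite-strand gene ENSG00000271984, which covers 6.6% of the CTSA exon bases, changed by 0.41 with siNTRK2 and 0.31 with siBDNF. NEURL2, also on the opposite strand and covering 11.1%, had values of -0.58 and -0.54 and was not called.

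GLB1 measured 131, 133 and 130 CPM with siBDNF, inside the siCtrl range (log2 0.01, 95% interval -0.0853 to 0.103, adjusted p = 0.93). LAMP2 (0.31) and SCARB2 (0.17) were higher, as with siNTRK2, although the call of LAMP2 was lost with the length and GC offset. TFEB measured 3.26, 3.65 and 3.14 CPM, TFE3 159, 160 and 157 CPM and MITF 21.4, 21.4 and 22 CPM. These overlapped siCtrl in every case, with 0 of the 3 called by edgeR or DESeq2 and 0 at an unadjusted p under 0.05. Among the smaller changes, those of HEXA (0.14), GAA (0.22), SCARB2, CD63 and SGSH lost their call without at least 1 library: siCtrl senescent replicate 1 for all but CD63, replicate 3 for all but SGSH, siBDNF replicate 2 for HEXA, CD63 and SGSH, and siBDNF replicate 3 for HEXA, with adjusted p of 0.0553 to 0.164. DESeq2 gave 14 higher and 5 lower genes, and without siBDNF replicate 2 the count of lower genes was 1.

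The direct comparison of siNTRK2 with siBDNF tested the difference between the silenced groups. Between them, 15 of the 47 genes were higher and 6 lower with siNTRK2 (71.4% of the calls higher), where 8.84% and 7.86% of all tested genes were (16.7% in all). This split depended on scaling: with library totals in place of TMM factors, 9 were higher and 11 lower (45.0% of the calls higher). None of the 47 passed 2-fold, also 0 at an unadjusted p under 0.05 and 0 by DESeq2, where 0.335% and 0.827% of all genes did upwards and downwards (1.16% in all). The widest difference was that of CTSS, at 2.81, 2.80 and 2.61 CPM with siNTRK2 and 4.61, 5.23 and 4.61 CPM with siBDNF. This was a log2 difference of -0.82 ± 0.124 (adjusted p = 3.23e-05), and the call held in every alternative other than the 2-fold threshold. The macrophage list, which sums to 2.25 to 2.65 CPM in the former and 4.15 to 5.06 CPM in the latter, moved in the same direction, and its part in the CTSS difference, a gene that leukocytes express strongly, was not tested.

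CTSK differed the other way, at 150, 161 and 150 CPM with siNTRK2 against 105, 108 and 105 CPM with siBDNF (log2 0.53 ± 0.0472, adjusted p = 7.7e-09). GUSB (0.42 ± 0.0717, adjusted p = 1.51e-04) and HEXA (0.37 ± 0.0462, adjusted p = 2.17e-06) were also higher with siNTRK2, without overlap. NEU1, the sialidase of the CTSA complex (chr6:31825436-31830682, hg19), measured 76.5, 79.2 and 76.2 CPM with siNTRK2, 98.9, 95.4 and 97.8 CPM with siBDNF and 89.4, 85.2 and 92.8 CPM with siCtrl. The siNTRK2 libraries were lowest of all senescent ones (log2 difference from siBDNF -0.33 ± 0.0506, adjusted p = 3.35e-05). GLB1 was 1.18-fold higher with siNTRK2 than with siBDNF (log2 0.24 ± 0.0456, adjusted p = 4.64e-04). PSAP and CTSA did not pass the test between the silenced groups, with 95% intervals of -0.11 to 0.0698 and -0.0147 to 0.171 on the log2 scale. Of the 3 transcription factors, 0 were called here by edgeR, 1 had an unadjusted p under 0.05, and DESeq2 called 1 higher. TFE3 measured 174, 170 and 174 CPM with siNTRK2 and 159, 160 and 157 CPM with siBDNF. MITF measured 23.2, 23.5 and 24.2 against 21.4, 21.4 and 22 CPM, and TFEB 3.01, 2.62 and 3.61 against 3.26, 3.65 and 3.14 CPM. Only TFEB overlapped. In total 9 of the 21 calls were lost without some library, and the number of higher genes was 9 without siBDNF replicate 1 and 8 without replicate 3.

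Other genes of the organelle, from lists that the choice of the 47 did not include, are described beside them. The vacuolar proton pump acidifies the lumen in which these hydrolases act. Of 18 pump subunits and accessory genes, 15 were higher in senescence and 0 lower (16 at an unadjusted p under 0.05, and 15 higher and 0 lower by DESeq2), a median log2 change of 0.596. ATP6V0A1, a membrane subunit, rose from 30.8 to 86.7 CPM (log2 1.49 ± 0.0542), and ATP6V1G1 of the cytosolic part from 62.5 to 125 CPM. With siNTRK2, 1 of the 18 was higher (TCIRG1, 0.30) and 11 were lower, including ATP6V0A1 (-0.54, from 86.7 to 59.5 CPM) and ATP6V0C (-0.52), which lines the proton channel. With siBDNF, 2 were higher and 7 lower, with ATP6V0E2 at -0.57. Between the silenced groups, 1 was higher and 8 were lower with siNTRK2. Of all tested genes, 29.8% were higher and 28.3% lower in senescence, and 11.1% and 10.0% with siNTRK2. The shares were 10.3% and 10.2% with siBDNF, and 8.84% and 7.86% between the silenced groups. The count of lower pump genes with siNTRK2 was 7 without siCtrl senescent replicate 3. With siBDNF it was 3 or 4 without siCtrl senescent replicate 1 or 3 or siBDNF replicate 1 or 2, and 4 with library totals, and the 2 higher ones were 0 without siCtrl senescent replicate 1 and 1 without replicate 3 or siBDNF replicate 2 or 3. Between the silenced groups it was 5 without siNTRK2 replicate 3 or siBDNF replicate 3. In senescence, 1 pump gene was called lower without proliferating replicate 1, and 2 with the length and GC offset.

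**Figure D4:**
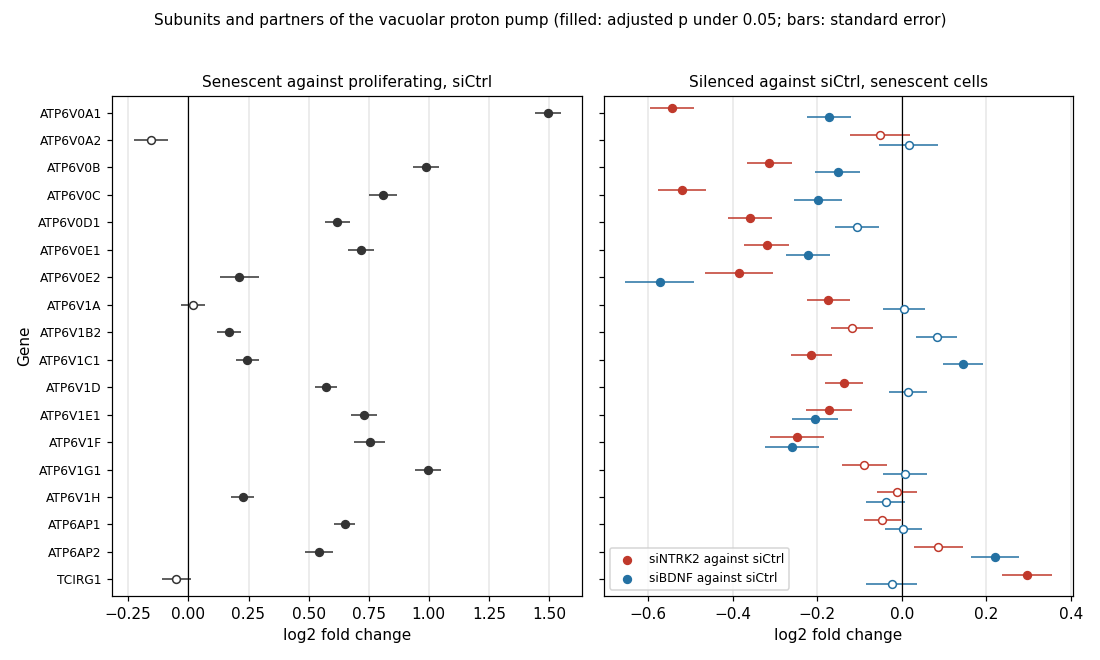
Log2 fold changes (x axis) of 18 proton pump genes (y axis) for senescent against proliferating cells with siCtrl (left) and for siNTRK2 (red) and siBDNF (blue) against siCtrl in senescent cells (right), with bars of 1 standard error and filled points where the adjusted p is under 0.05. In senescence 15 points are filled, all to the right of 0, and with siNTRK2 11 of the 12 filled points lie to the left.

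Among 20 further lysosomal membrane genes, 13 were higher and 3 lower in senescence, 2 and 8 with siNTRK2, and 3 and 4 with siBDNF, against 29.8% and 28.3%, 11.1% and 10.0%, and 10.3% and 10.2% of all tested genes. The 13 higher in senescence include LAMP3, which had 5, 2 and 3 counts in proliferating and 25, 21 and 15 in senescent libraries. It passed the filter through the senescent groups, so its direction was largely set by the filter. The 2 higher with siNTRK2 were 1 without siCtrl senescent replicate 1 or 3 or siNTRK2 replicate 3, and the 4 lower with siBDNF were 2 without siBDNF replicate 2. CD68, a heavily glycosylated protein that macrophages express strongly but that is not confined to them, stood at 53.0 CPM in proliferating cells, 109 CPM with siCtrl, 77.5 CPM with siNTRK2 and 179 CPM with siBDNF in senescent cells. Its log2 changes were 1.05 in senescence, -0.50 with siNTRK2 and 0.71 with siBDNF, and the silenced groups differed by -1.21 ± 0.049 (adjusted p = 2.9e-15). GPNMB, a glycoprotein of lysosomes and melanosomes, had the reverse order after silencing, at 69.5 CPM with siNTRK2, 31.3 CPM with siBDNF and 37.3 CPM with siCtrl (difference between the silenced groups 1.15 ± 0.0629). Of 20 further hydrolases, 11 were higher and 2 lower in senescence, 4 and 3 with siNTRK2 and 5 and 1 with siBDNF. These are 55% and 10%, 20% and 15%, and 25% and 5% of the list, beside the shares of all tested genes given above. Without siNTRK2 replicate 1 the siNTRK2 pair was 2 and 5, and the 1 lower with siBDNF was 0 without siCtrl senescent replicate 3 or siBDNF replicate 2. ARSG rose by 0.85 in senescence and GGH, the gamma-glutamyl hydrolase of folates, fell by 1.58 on the log2 scale. Of 16 genes for sorting and maturation of hydrolases, 7 were higher and 6 lower in senescence (43.8% and 37.5% of the list, beside 29.8% and 28.3% of all tested genes). Among them were GNPTG (0.83), which serves mannose 6-phosphate tagging, and SORT1 (-0.43), a sorting receptor.

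Of 21 genes that control TFEB through mTORC1, calcineurin and related proteins, 4 were higher and 7 lower in senescence, or 19% and 33.3% of the list beside 29.8% and 28.3% of all genes. FLCN (folliculin), which acts on Rag GTPases, fell by 0.55 on the log2 scale. RRAGD and TFEC were higher but lay at 0.325 and 0.634 CPM in senescent cells, against at most 0.0811 and 0.108 CPM in proliferating libraries. Both passed the filter through the senescent groups, so their direction was largely set by it. Without genes under 10 counts in some library, only 2 of the list were higher. Of 10 listed cathepsin inhibitors, 2 had at least 10 counts in every library, CST3 and CSTB, named here after their values were seen. CST3, the abundant cystatin C, rose from 97.8 to 169 CPM (log2 0.79) and CSTB from 144 to 187 CPM (0.37) in senescence. The other 4 that could be tested passed the filter through the senescent groups, so their direction was largely set by it, and counts are given for 3 of them. CST1 had 30, 9 and 14 counts in the proliferating and 1004, 1085 and 1007 in the senescent libraries, CST4 1, 9 and 3 against 319, 279 and 241, and CST2 0, 0 and 0 against 22, 11 and 5. With siNTRK2, siBDNF and between the silenced groups, the sorting list gave 8 higher and 2 lower, 6 and 2, and 2 and 2 genes, the TFEB control list 3 and 5, 6 and 2, and 0 and 3, and the inhibitors 1 and 1, 2 and 1, and 1 and 0. Of all tested genes, 11.1% and 10.0%, 10.3% and 10.2%, and 8.84% and 7.86% were higher and lower in the same order of comparisons. The small counts of these lists moved by over 1.5 times in some alternatives.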

How the data were processed

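Poly(A) RNA of 12 WI-38 libraries was sequenced, and the authors deposited 1 table of raw read counts per gene and library, made, per the labels, with bcl2fastq 2.20.0.422, cutadapt, STAR 2.4.0j and featureCounts 1.6.4 on hg19 (GRCh37). The study's methods name a stranded mRNA library kit. Whether strand was used in counting is not given in the sources used here, and reads of overlapping or antisense genes may be shared. Of 57773 gene IDs, 55538 matched a symbol, and 21518 genes passed edgeR's filter on low counts.

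Counts were fitted over all 12 libraries with edgeR 4.0.16 (R 4.3.3), TMM factors and the quasi-likelihood test, and p-values were adjusted over all tested genes (Benjamini-Hochberg). Errors of log2 changes are standard errors, and intervals cover 95%. On simulated counts for siNTRK2 against siCtrl (21518 genes), 155 of 200 genes changed 2-fold were recovered with 4 false calls. Only 2-fold changes were simulated, so the recovery of smaller ones, such as those of the 47 genes with siNTRK2, was not measured. Libraries held 31567912 to 72328151 counts. The 47 genes and all lists were chosen with earlier results of these data known. Values per library were given for GLB1, TFEB, TFE3, MITF and the 5 widest called changes of each comparison, examples for the rest, and at most 2 genes per direction of each pathway list. Alternatives were DESeq2 1.42.0, other scaling, filters and samples in the fit, a replicate block, a length and GC correction (96.4% of tested genes), a 2-fold threshold, and each library left out. The counts of the pathway lists under these alternatives were added after seeing the data.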

Additional observations from a re-analysis of the deposited data

How the results depend on the processing

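With a 2-fold threshold the higher and lower counts were 6 and 1 in senescence and 0 and 0 with siNTRK2, with siBDNF and between the silenced groups. For siBDNF, 5 genes were lower by DESeq2 and 5 with only the 2 groups compared, and 1 to 3 with 1 library left out. For siNTRK2, 3 to 9 were lower with 1 library left out. Between the silenced groups, library totals gave 9 higher and 11 lower, and leaving out 1 library 8 to 13 higher. Of 100 called changes 0 changed sign in any alternative run. Values near 0 did: with the length and GC correction, TFE3 in senescence (-0.009122), MITF with siNTRK2 (-0.001614), and LGMN (0.06262), MCOLN1 (0.01331) and TFE3 (0.01917) with siBDNF, and with library totals LGMN (0.04404), TFE3 (0.03664) and MITF (0.002142) with siBDNF. With 1 library left out, FUCA1 with siNTRK2 ranged from -0.00835 to 0.02322 and TFEB from -0.0948 to 0.1326, GLB1 with siBDNF from -0.007473 to 0.04317 and LGMN from -0.0383 to 0.02031, and PSAP between the silenced groups from -0.02808 to 0.001602. The cause was not tested. A replicate block gave 33 higher and 6 lower genes in senescence, 17 and 8 with siNTRK2, 13 and 4 with siBDNF, and 16 and 5 between the silenced groups. Libraries of the same number did not deviate together (mean r 0.00184 over 18 pairs, and 2 of 12 libraries correlated best with their own number), so the numbers were not taken as pairs. Apart from the 2-fold threshold, calls lost in at least 1 alternative were 6 of 39 in senescence, 8 of 25 with siNTRK2, 7 of 15 with siBDNF and 9 of 21 between the silenced groups. At these depths the low counts of TFEB, CTSS and CTSH limit what could be detected.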
